A study of Homo sapiens with 64 samples.

Results

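The cytosolic ribosomal proteins were measured as transcripts in NCI-H295R, a steroid-producing cell line grown from a human adrenocortical carcinoma. The members are the 81 genes whose symbols name a protein of the large subunit (RPL genes with RPLP0, RPLP1 and RPLP2, 49 genes) or of the small subunit (RPS genes with RPSA, 32 genes), taken by symbol alone from the 26364 genes listed. FAU and GNB2L1 (the older symbol of RACK1) encode ribosomal proteins too, but their symbols lie outside this naming and they are described separately. The study knocked down NNT, the mitochondrial transhydrogenase that makes NADPH, by an shRNA (4 libraries; its scrambled control has 3) or by siRNA-2 or siRNA-3 (3 libraries each; their scrambled control has 3). The siRNA cells were taken 72 h after transfection; no time is given for the shRNA cells, and the labels do not say whether shRNA lines were clones. All 5 groups were thus the same cell line carrying an shRNA or a siRNA, and none was left without RNA interference. Libraries are named here by group and by the code in their titles, such as 19-2, whose meaning the labels do not give.

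A ribosome joins a small subunit, which reads the messenger RNA, to a large subunit, which forms the peptide bond. Each subunit needs its proteins in near-equal numbers, and many of these genes are written from promoters whose transcripts open with a C followed by a run of pyrimidines, called the 5′ terminal oligopyrimidine (TOP) sequence. Through TOP sequences, mTORC1 and the binding protein LARP1 control how strongly ribosomal protein messages are translated, a step that counts of messenger RNA do not show. Unassembled ribosomal proteins are degraded, and RPL5 and RPL11, bound to 5S rRNA, can hold MDM2 and so stabilise p53.

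The starts of the transcripts show this shared feature. RefSeq promoters (GRCh38.p14) listed 79 starts for 64 of the 81 members. At 46 of the 79 starts (58.2%) the first transcribed base was a C followed by 4 pyrimidines, against 1429 of 35116 starts of all genes (4.07%). These windows of 30 bases are shown for members whose values are described later. They hold 15 bases before the annotated start and 15 from it on, and capitals mark the unbroken pyrimidine run that covers the first transcribed base.
RPSA (chr3:39406705-39406734, plus strand): tttcctgccgcctgTCTTTTCCgtgctacc
RPL34 (chr4:108620561-108620590, plus strand): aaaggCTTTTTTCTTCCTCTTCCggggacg
RPL41 (chr12:56116618-56116647, plus strand): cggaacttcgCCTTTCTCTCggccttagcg
RPL36A (chrX:101390996-101391025, plus strand): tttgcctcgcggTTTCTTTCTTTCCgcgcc
RPL35 (chr9:124861943-124861972, minus strand): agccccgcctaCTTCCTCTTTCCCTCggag
RPL7A (chr9:133348203-133348232, plus strand): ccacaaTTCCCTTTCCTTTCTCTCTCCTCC
RPS25 (chr11:119018329-119018358, minus strand): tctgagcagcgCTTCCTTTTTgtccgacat
RPS27 (chr1:153990747-153990776, plus strand): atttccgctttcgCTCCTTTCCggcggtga
RPS27L (chr15:63157463-63157492, minus strand): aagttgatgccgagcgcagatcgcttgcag
RPS29 (chr14:49598696-49598725, minus strand): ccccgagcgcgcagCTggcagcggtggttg

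RPS27 and its paralog RPS27L, a gene that p53 is known to induce, differ at this place: RPS27 has a run of 9 pyrimidines over the start and RPS27L has none. RPS29 has a run of 2 at its annotated start, although it encodes a core protein of the small subunit. Over all member starts the run had a median of 10 bases and reached 25 in RPL7A, while the median over all starts was 0. Annotated starts can lie some bases from the true ones, so a short run says only that these letters are not at the annotated place. RPL34 has a second listed start with a run of 5.

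Other short motifs were searched in the 300-base promoters (250 bases before the start and 50 after it, both strands). CTTTCC, which overlaps the pyrimidine run in many of them, was in 46.8% of member promoters and in 26.3% of all. CCGGAAG, the core that ETS factors such as GABP are known to bind, was in 34.2% and 10.3%. AAGATGG, the core of the YY1 motif, was in 10.1% and 5.84%, GGGCGG, the Sp1 box, in 55.7% and 45.0%, and TATAAA in 7.59% and 11.5%. These matches are descriptions of letters, and some members have several listed starts, whose promoters can overlap.

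Libraries held 20148231 to 43992833 gene counts, and members took 2.85 to 3.48% of them (612882 to 1365405 counts), so that counting error is a minor part of the spread for well-covered members. NNT checked the labels. Its level, in counts scaled to a common library size by TMM (CPM), was 317 to 415 with the scrambled shRNA, 28.7 to 34.6 with the NNT shRNA, 296 to 362 with the scrambled siRNA, 49.9 to 233 with siRNA-2 and 31.8 to 47.8 with siRNA-3. No library went against its label, and the knockdown with siRNA-2 was the least even. In edgeR the log2 fold change of NNT was -3.54 with the NNT shRNA (adjusted p = 2.36e-05). It was -3.13 with siRNA-3 (adjusted p = 0.000172). With siRNA-2 it was -1.11 (SE 0.32, adjusted p = 0.0777), so NNT itself did not pass the threshold used for members. The 7 adrenocortical markers summed to 1198 to 2158 CPM in the 16 libraries with none at 0. The markers of other cells were low: endothelial markers summed to at most 0.285 CPM, immune markers to at most 1.80 CPM (1 of 5 at 0), fibroblast markers to at most 22.0 CPM and chromaffin or neural markers to at most 28.1 CPM (2 of 6 at 0). The labels do not state that replicate libraries derive from independent cultures; p-values then reflect library-to-library spread alone, and it may be technical.

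The values of some members are uncertain because the genome holds near-identical copies of them. The reference annotation names 1133 pseudogenes after the 81 members, up to 91 for RPL23A, and reads with several alignments were set apart by the counting. RPL21, a large-subunit protein with 66 annotated pseudogenes, was at 3.29 to 9.42 CPM. Over all members, the level per kilobase and the number of annotated pseudogenes had a Spearman correlation of 0.19 across the 81 genes, a description of genes that share libraries. The 16 members with at least 20 pseudogenes had a median of 470 CPM per kilobase, and the other 65 had a median of 400. How much of each member's level was lost to copies was not tested. The rows that join a member to its neighbour by read-through (RPL17-C18orf32, RPL36A-HNRNPH2 and RPS10-NUDT3) stayed at or under 0.325 CPM.

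Divided by the length of a reference transcript, which allows genes to be set side by side, the 3 highest members in the scrambled shRNA cells were RPL35 (2275 ± 163 CPM per kilobase, SD, n = 3), RPS27 (1293 ± 116) and RPL7A (1163 ± 57.7). RPL35 sits at the exit of the peptide tunnel, RPS27 on the platform of the small subunit, and RPL7A is a large-subunit protein. With each member averaged over the 16 libraries, the median over members was 399 CPM per kilobase for the large and 507 for the small subunit. The lowest were the muscle paralog RPL3L (0 counts in 10 of 16 libraries and at most 3 in the others) and the testis paralog RPL10L (2 to 12 counts a library). RPL3L and RPL10L were not tested for this reason, which leaves 79 members tested, 47 large and 32 small. The scale depends on the transcript chosen: 12 members have a reference transcript of over 2000 bases, and RPL37, a short protein, was assigned 7686 bases.

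**Figure D1:**
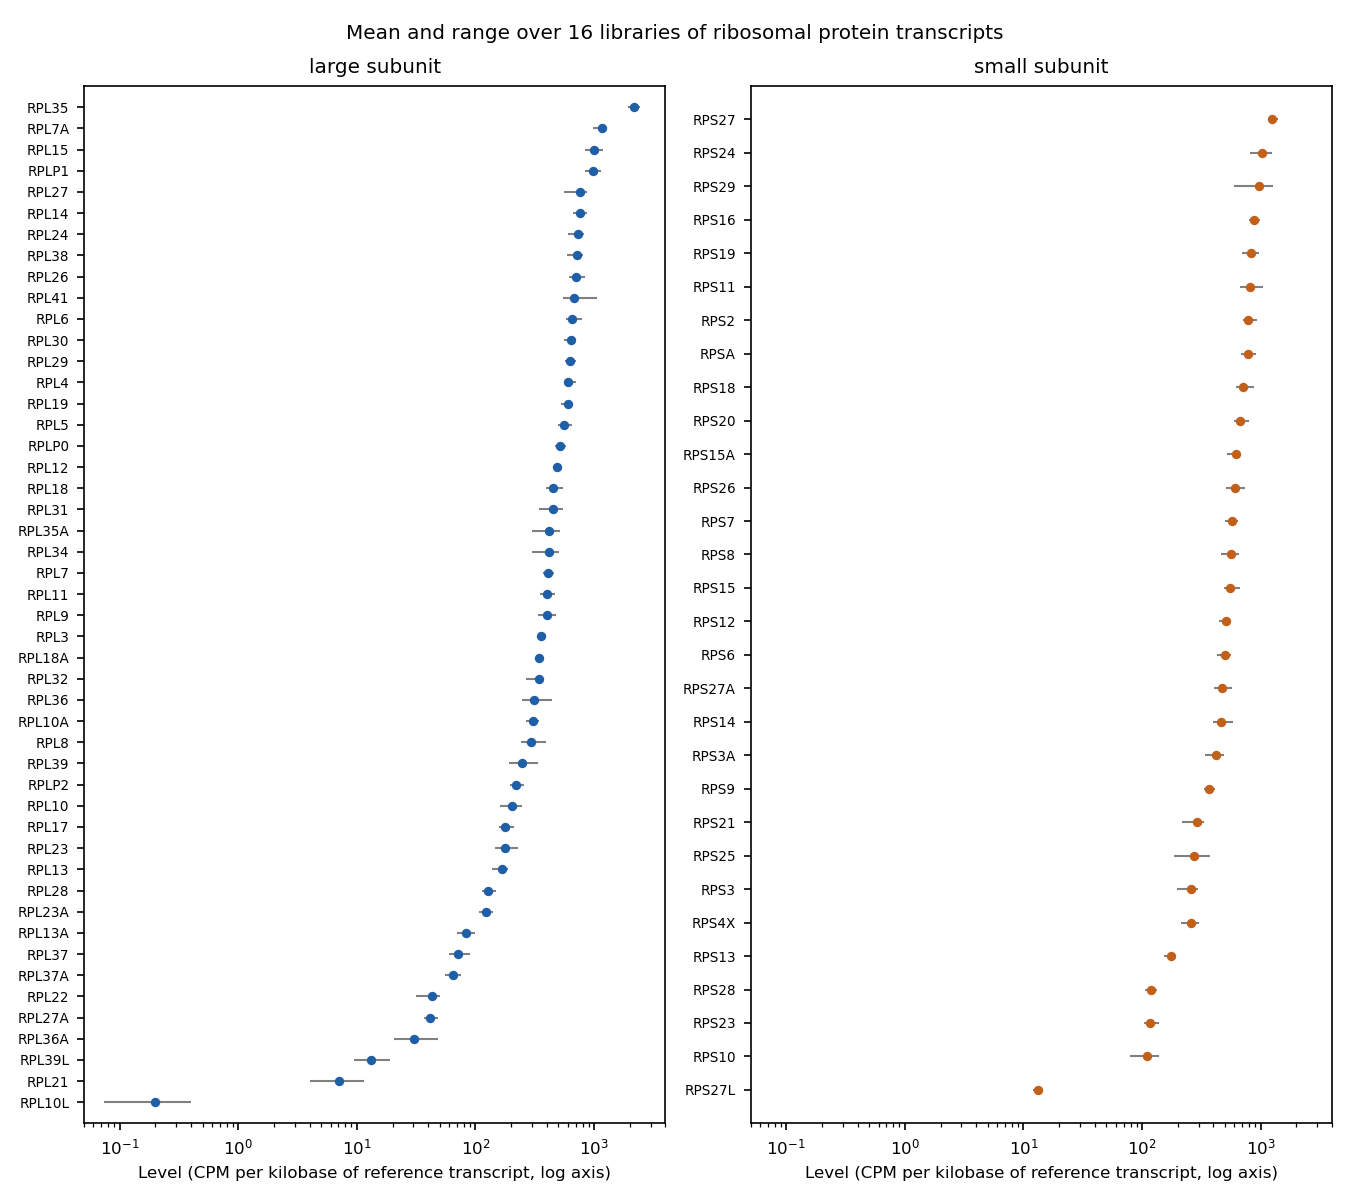
Level per kilobase of reference transcript for large-subunit and small-subunit members (log axis; members not drawn include RPL3L, whose mean was under 0.1 CPM). Points are means over 16 libraries and lines run from the lowest to the highest library; RPL35 stands highest at 2170 CPM per kilobase and RPL10L stands lowest.

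The paralog pairs kept unlike levels. RPL39L, known from testis and cancer cells, was at 7.20 to 14.3 CPM, beside 76.6 to 136 CPM for RPL39. RPL10L reached at most 0.325 CPM, beside 364 to 558 CPM for RPL10, a protein that closes the maturation of the large subunit. RPS27L was at 77.2 to 92.8 CPM and RPS27 at 418 to 508 CPM, values that are not corrected for their transcripts' lengths. RPS27L had the smallest spread of all members, with a coefficient of variation within groups of 4.42%.

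The subunit sums moved together from library to library. Summed over its members, the large subunit ranged from 17644 to 21763 CPM in the 16 libraries, a range of 23.3% of the lowest, and the small subunit from 10479 to 12834 CPM, a range of 22.5%. Their ratio ran from 1.66 to 1.74, a range of 4.87%. The Pearson correlation of the sums was 0.976 and the Spearman correlation 0.968 over the 16 libraries, given as a description because both sums share the library, its depth and its scaling. The library with the highest sum of both was scrambled shRNA 19-2 and the one with the lowest was scrambled siRNA 23-5, so both extremes were controls.

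By group, the large subunit stood at 20041 ± 1496 CPM (SD, n = 3) with the scrambled shRNA and at 20783 ± 985 CPM (SD, n = 4) with the NNT shRNA. It stood at 18912 ± 1145 CPM with the scrambled siRNA, 19196 ± 1085 CPM with siRNA-2 and 20384 ± 884 CPM with siRNA-3 (SD, n = 3 each). The small subunit stood at 11926 ± 805 CPM with the scrambled and 12283 ± 552 CPM with the NNT shRNA. It stood at 11176 ± 641 CPM with the scrambled siRNA, 11247 ± 786 CPM with siRNA-2 and 11840 ± 552 CPM with siRNA-3. The libraries of each knockdown group overlapped those of its control in both sums. The ratio of large to small was 1.68 ± 0.0203, 1.69 ± 0.0252, 1.69 ± 0.00781, 1.71 ± 0.0220 and 1.72 ± 0.0167 in the same order of groups, highest with siRNA-3, where all 3 libraries (1.70 to 1.74) lay above all 3 scrambled siRNA libraries (1.68 to 1.70). The summed level was spread over many rows: the 5 members with the highest mean CPM held 18.3% of the total of both subunits, and 67 members had means of 100 to 1000 CPM. Such a sum counts messenger RNA relative to the scaled library size of a bulk sample. It says nothing of ribosome number, cell number or RNA per cell.

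**Figure D2:**
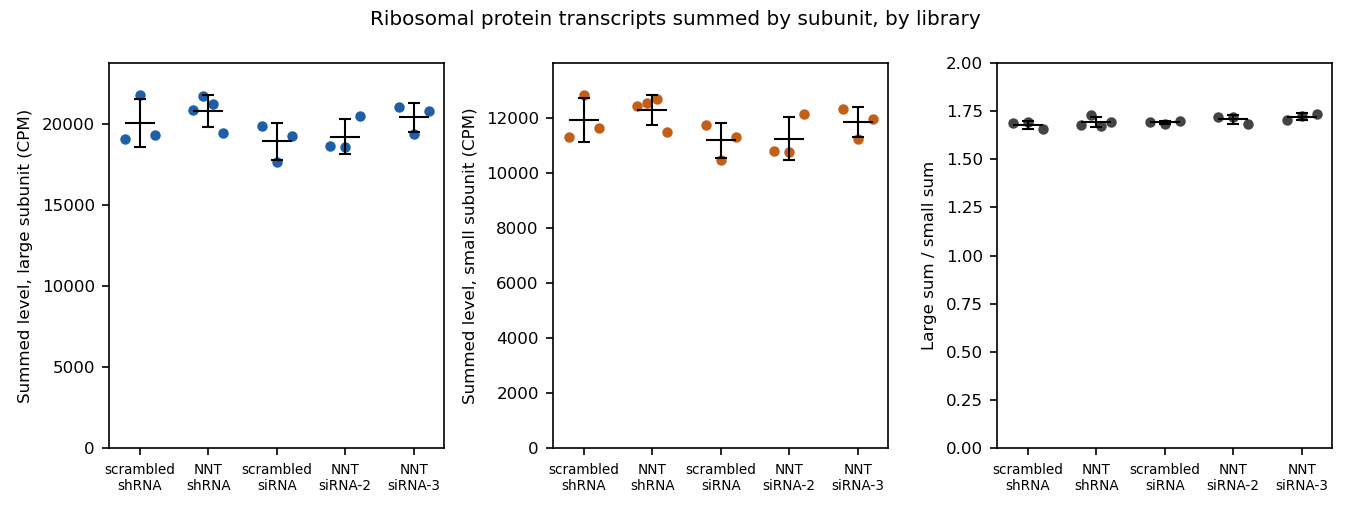
Summed CPM of large-subunit and small-subunit members and their ratio, 1 point a library, with the group mean (bar) and SD. The ratio stays between 1.66 and 1.74 while the sums range over 17644 to 21763 CPM (large) and 10479 to 12834 CPM (small).

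Within groups, single libraries shifted nearly all members at once. In scrambled shRNA 19-2, 45 of 46 large-subunit and 30 of 31 small-subunit members (those with a mean log2 CPM of at least 3) lay above their group mean, with medians 0.13 and 0.11 above it on the log2 scale. In NNT shRNA 24-2 only 1 of 46 and 1 of 31 did, with medians of -0.10 and -0.10. In siRNA-2 16-1 all 46 large-subunit members and 30 of 31 small-subunit members were above (0.11 and 0.11). The 24 translation factors with known TOP starts moved with scrambled shRNA 19-2 (23 of 24 above, median 0.10) and with siRNA-3 23-5 (1 of 24 above, median -0.09), while the median of all genes stayed within 0.01 of 0 in every library. In NNT shRNA 24-2 and siRNA-2 16-1 these factors deviated by -0.03 and 0.03, less than the ribosomal proteins. They went the other way in NNT shRNA 19-2 (factors -0.01, large subunit 0.07, small subunit 0.01). The same held in siRNA-2 11-1 (factors 0.01, large subunit -0.08, small subunit -0.05), while in the other libraries the signs were shared.

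**Figure D3:**
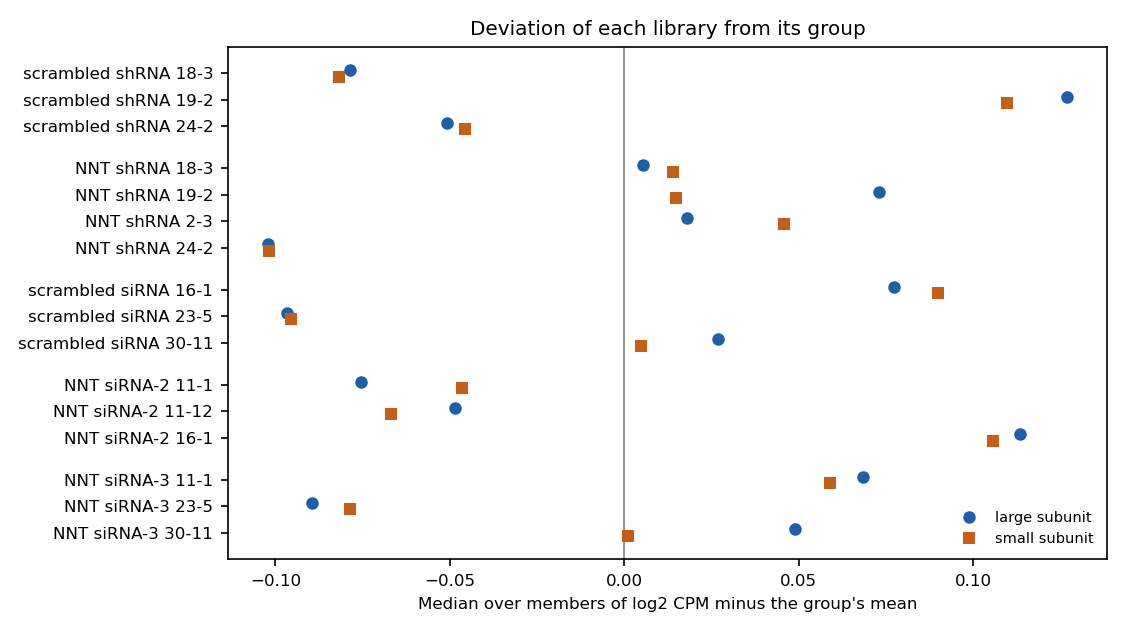
Median over members of the log2 CPM minus the mean of the library's own group, for the large subunit (circles) and the small subunit (squares) in each of 16 libraries. Both subunits lie on the same side of 0 in all libraries, from -0.10 in NNT shRNA 24-2 to 0.13 in scrambled shRNA 19-2, and the spread within groups is as wide as the medians that separate groups.

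Members varied about as much as other genes above the same minimum level, which were not otherwise matched in abundance. Their coefficient of variation within groups had a median of 7.76% over 75 members with a mean log2 CPM of at least 6, beside 8.08% over 4105 other genes; it was 7.94% for large-subunit and 7.47% for small-subunit members at a mean log2 CPM of at least 3. At that level RPL36A (24.6%), RPS29 (18.3%) and RPL41 (16.1%) varied most. RPL36A lies near the exit site for tRNA, RPS29 a small zinc-binding protein of the head and RPL41 the shortest protein of the ribosome. RPL36A ran from 17.96 to 42.4 CPM and RPS29 from 177 to 374 CPM over the 16 libraries.

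With the NNT shRNA no ribosomal protein gene passed the test. Most values were slightly above 0: 65 of 79 had a log2 fold change above 0 (52.6% of all 15201 genes tested did), with medians of 0.05 for the large and 0.04 for the small subunit beside 0.01 for all genes. At an adjusted p of 0.05 (edgeR, quasi-likelihood, Benjamini-Hochberg; every adjusted p here is from it unless DESeq2 is named) 0 of 79 members passed, beside 3 of all genes (0.0197%; higher 0.00658%, lower 0.0132%), or 1 with the title code as a block. No member had groups without overlap, beside 1.34% of all genes that were higher and 1.85% that were lower. DESeq2 called none either, and 1 member, RPL41, had an unadjusted p under 0.05 (1.43% of all genes). The standard error of a single member's log2 fold change had a median of 0.09. Leaving out single libraries moved the medians from 0.01 (large) and 0.002 (small) without scrambled shRNA 18-3 to 0.11 and 0.09 without scrambled shRNA 19-2.

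RPL41, whose start is shown above, stood at 265, 357 and 296 CPM with the scrambled shRNA (18-3, 19-2, 24-2) and at 347, 500, 326 and 344 CPM with the NNT shRNA (18-3, 19-2, 24-2, 2-3). Each library with a shared code was higher with the NNT shRNA, but the groups overlapped, since scrambled 19-2 lay above 3 of the 4 NNT libraries. The log2 fold change was 0.31 (SE 0.13, unadjusted p = 0.0339, adjusted p = 0.999994). RPL36A gave the highest log2 fold change, 0.32 (SE 0.22), resting on NNT shRNA 19-2 at 42.4 CPM beside 25.2 to 26.5 CPM in the other 3 and 19.1 to 29.5 CPM in the controls; without that library it was 0.11. RPL36, a large-subunit protein, was next at 0.19 (SE 0.13).

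At the low end were RPL34 (-0.06, SE 0.12), RPS12 (-0.04, SE 0.08) and RPS23 (-0.02, SE 0.09), an order of small values whose sign turned when single libraries were left out. RPS12 sits in the beak of the small subunit and RPS23 at its decoding centre. The P stalk, which recruits the elongation factors, hardly differed: log2 fold changes were 0.01 for RPLP0, 0.05 for RPLP1 and 0.04 for RPLP2 (SE 0.08, 0.10 and 0.08). RPS14, the platform protein whose loss underlies the 5q deletion syndrome, was at 285 ± 35.6 CPM (SD, n = 4) beside 253 ± 20.6 CPM (SD, n = 3), which is a log2 difference of 0.17 (SE 0.10). RPL3, which shapes the peptidyl transferase centre, gave 0.02 (SE 0.07), RPL5 and RPL11 of the 5S particle -0.02 and 0.09 (SE 0.08 each), and RPS6, the substrate of the S6 kinases, 0.06 (SE 0.08).

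With siRNA-2 no member passed and the members had no common direction. NNT, the target, did not pass in edgeR either (adjusted p = 0.0777). Of 79 members, 42 were above 0 (51.3% of all genes), with medians of 0.00 for both subunits, beside 0.01 for all genes. edgeR and DESeq2 each called none of the members, while edgeR called 299 of 15201 genes (1.97%; higher 0.993%, lower 0.974%). That share depended on the fit: with only the groups compared in it, edgeR called 1 of 14331 genes. Unadjusted p was under 0.05 for 3 members, 3.80% of them, beside 18.6% of all genes. Libraries did not overlap for 5 members that were higher, 6.33% of them (12% of all genes), and for 1 that was lower (10.4% of all genes).

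RPS29 had the lowest log2 fold change among members whose average log2 CPM was 3 or more, -0.45 (SE 0.18, unadjusted p = 0.0245, adjusted p = 0.190). It stood at 199, 177 and 298 CPM with siRNA-2 (11-12, 11-1, 16-1) and at 374, 253 and 294 CPM with the scrambled siRNA (16-1, 23-5, 30-11). The groups overlapped through siRNA-2 16-1, and leaving it out gave -0.71 (adjusted p = 0.0467). RPS29 also passed when title codes entered the fit as blocks (-0.58, adjusted p = 0.0407). Only code 16-1 is shared by siRNA-2 and this control. Deviations of its libraries from their groups correlated at 0.0144 over all genes and 0.627 over members. RPL22, a large-subunit protein with a role in T cell development, stood at 76.1 ± 9.79 CPM (SD, n = 3), and its control stood at 91.6 ± 6.503 CPM (SD, n = 3). Its log2 fold change of -0.27 had an SE of 0.10 and an adjusted p of 0.144. Its paralog RPL22L1, which RPL22 is known to repress, stood at 38.3 ± 1.88 CPM beside 35.2 ± 4.56 CPM, a log2 fold change of 0.12 (SE 0.18). RPL35A, a large-subunit protein mutated in Diamond-Blackfan anaemia, followed at -0.22 (SE 0.13). RPL28 (0.17, SE 0.07) and RPL8 (0.16, SE 0.10) were among the highest. In RPL28 the 3 siRNA-2 libraries, at 610 to 665 CPM, lay above the 3 controls at 548 to 590 CPM.

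With siRNA-3 no member passed in edgeR, and most members had log2 fold changes above 0. Of 79 members, 63 were above 0 (49.5% of all genes were), with medians of 0.11 for the large and 0.06 for the small subunit beside -0.003 for all genes. edgeR called 323 of 15201 genes (2.12%; higher 0.862%, lower 1.26%) and none of the members, while DESeq2 called 1, RPL15. With only the groups compared in the fit, edgeR called 56 of 14601 genes. Unadjusted p was under 0.05 for 11 members, 13.9% of them and fewer than the 17.8% of all genes. Of the 11, 10 were higher and 1 lower, beside 1344 higher and 1362 lower of all 15201 genes. Libraries did not overlap for 10 members that were higher, 12.7% of them beside 10.6% of all genes, and for 1 that was lower, beside 10.5% of all genes. With scaling by library totals alone the medians were 0.05 and 0.001, and that of all genes -0.07. The scrambled library 23-5, the lowest of all 16 in both sums, bore on the size: without it the medians were 0.03 and 0.04.

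RPL15, a large-subunit protein mutated in some patients with Diamond-Blackfan anaemia, came nearest to the threshold. It stood at 974, 889 and 892 CPM with siRNA-3 (11-1, 23-5, 30-11) and at 804, 687 and 803 CPM with the scrambled siRNA (16-1, 23-5, 30-11), so that the groups did not overlap. The log2 fold change was 0.26 (SE 0.08, adjusted p = 0.0817; with DESeq2 0.26, adjusted p = 0.0283). RPL34 was highest at 0.28 (SE 0.13, adjusted p = 0.267), and RPL23, a large-subunit protein also known to bind MDM2, was at 0.25 (SE 0.09, adjusted p = 0.164).

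RPS25, a head protein that viral internal ribosome entry sites are known to need, went the other way. It stood at 192, 157 and 217 CPM with siRNA-3 (11-1, 23-5, 30-11) and at 259, 246 and 226 CPM with the scrambled siRNA (16-1, 23-5, 30-11), every siRNA-3 library below every control. The log2 fold change was -0.37 (SE 0.12, unadjusted p = 0.00717, adjusted p = 0.115), and without siRNA-3 30-11 it was -0.48 and passed. Among members whose average log2 CPM was 3 or more, RPL10 was next at -0.12 (SE 0.10), then RPLP0 at -0.06 (SE 0.08). RPLP1 and RPLP2 were at 0.01 (SE 0.10) and 0.07 (SE 0.08). RPL5 and RPL11 stood at 0.12 and 0.18 (SE 0.09 each), RPS6 at 0.16 (SE 0.09), RPL3 at 0.02 (SE 0.08) and RPS14 at -0.03 (SE 0.10).

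**Figure D4:**
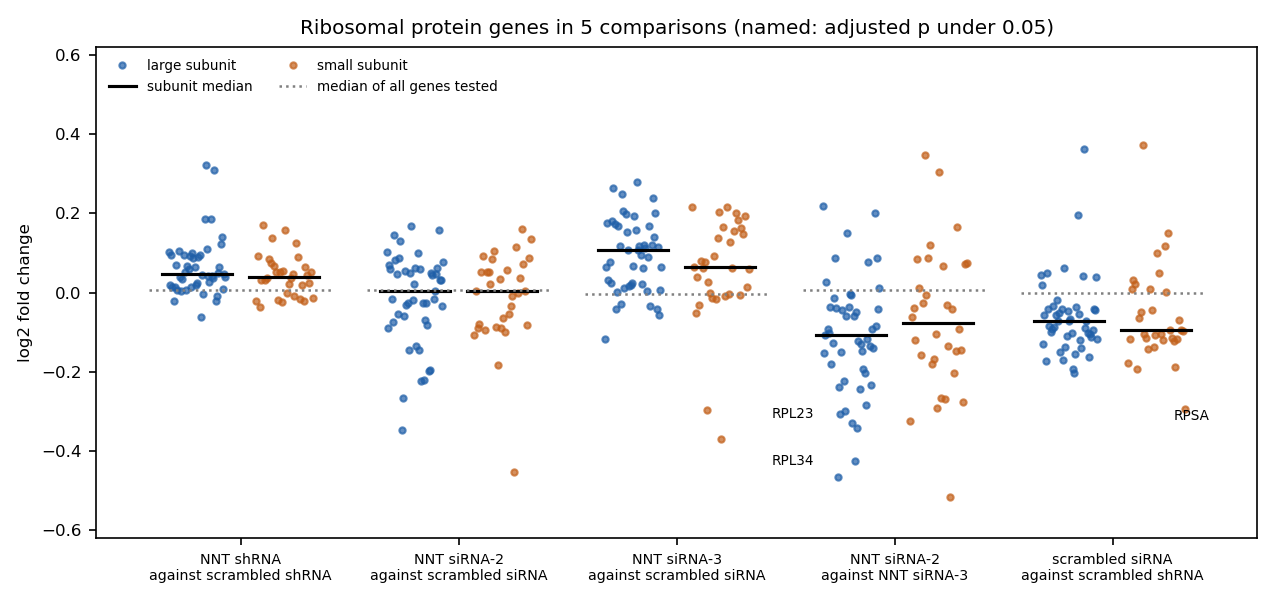
Log2 fold change of 47 large-subunit and 32 small-subunit members in 5 comparisons, with the median of each subunit (black bar) and of all 15201 genes tested (dotted line); names mark adjusted p under 0.05. The medians lie between -0.11 and 0.11, and RPL23, RPL34 and RPSA alone are named.

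The siRNAs were also set against each other, which asks whether they act alike; both comparisons with the scrambled siRNA use the same 3 control libraries, so their values are given side by side and not correlated. RPL23 and RPL34 were lower with siRNA-2 than with siRNA-3, and no member was higher at the threshold. That is 2 of 79 members (2.53%), when 14.4% of all 15201 genes passed in either direction (7.36% higher, 7.05% lower). Unadjusted p was under 0.05 for 17 members, 21.5% beside 29.7% of all genes. Of the 17, 15 were lower and 2 higher, beside 2202 lower and 2316 higher of all 15201 genes. The libraries did not overlap for 10 members that were lower, 12.7% beside 15.5% of all genes, and for 5 that were higher, 6.33% beside 16.1%. In this comparison the medians were -0.11 for the large and -0.08 for the small subunit, and 18 of 79 members were above 0 (50.9% of all genes). Scaled by library totals alone they were -0.05 and -0.02, and 0.06 over all genes. Leaving out single libraries, the large-subunit median ranged from -0.17 (without siRNA-2 16-1) to -0.06 (without siRNA-3 30-11) and the small-subunit median from -0.14 (without siRNA-2 16-1) to -0.02 (without siRNA-3 11-1).

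RPL23 (ENSG00000125691) lies on chromosome 17 from 38847865 to 38853843 on the minus strand of GRCh38, with 5 exons in its reference transcript. It stood at 460, 416 and 492 CPM with siRNA-2 (11-12, 11-1, 16-1) and at 641, 515 and 537 CPM with siRNA-3 (11-1, 23-5, 30-11), so the groups did not overlap. The log2 fold change was -0.31 (SE 0.09, adjusted p = 0.0342). The scrambled siRNA lay between them at 475 ± 38.2 CPM (SD, n = 3), and both shRNA groups were at 499 ± 38.9 CPM (scrambled, SD, n = 3) and 501 ± 18.4 CPM (NNT, SD, n = 4).

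RPL34 (ENSG00000109475) lies on chromosome 4 from 108620566 to 108630412 on the plus strand, with 5 exons. It stood at 151, 131 and 180 CPM with siRNA-2 (11-12, 11-1, 16-1) and at 225, 179 and 217 CPM with siRNA-3 (11-1, 23-5, 30-11). The groups touched, because siRNA-2 16-1 lay just above siRNA-3 23-5. The log2 fold change was -0.42 (SE 0.13, adjusted p = 0.0356), and the scrambled siRNA lay between at 171 ± 28.7 CPM (SD, n = 3). Both calls were lost without siRNA-2 11-12, siRNA-2 11-1 or siRNA-3 11-1, when no member passed, and in a fit of these 2 groups alone. Without siRNA-3 30-11 the RPL34 call was lost too. In that fit RPL23 passed (-0.34, adjusted p = 0.0405), as did RPS25, higher with siRNA-2 (0.42, adjusted p = 0.0408).

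Among the other members whose average log2 CPM was 3 or more, RPS29 differed most, by -0.52 (SE 0.18, adjusted p = 0.0685), then RPL35A by -0.34 (SE 0.13, adjusted p = 0.0749). In the other direction RPS25 was 0.30 (SE 0.12, adjusted p = 0.101), RPL10 0.22 (SE 0.10, adjusted p = 0.159) and RPL8 0.20 (SE 0.10, adjusted p = 0.194) higher with siRNA-2. The number of members that passed varied with the libraries: 10 were lower without siRNA-2 16-1 (when 1811 of 15370 genes passed) and 6 without siRNA-3 23-5 (1647 of 15369 genes), each list with RPL23, RPL34, RPS29, RPL35A and RPL31 in it. DESeq2 called 9 members in place of 2, all lower, RPL23 and RPL34 among them, and 2720 of 15201 genes. The knockdown itself was unlike: NNT had means of 157 ± 95.2 CPM (siRNA-2) and 38.6 ± 8.28 CPM (siRNA-3; SD, n = 3 each). Markers of adrenocortical cells differed as well: 4 of 7 were lower with siRNA-2 than siRNA-3 at the threshold, as were 7.05% of all genes. The siRNA-2 libraries summed to 1351 to 1451 CPM and overlapped the scrambled siRNA, at 1339 to 1855 CPM. The siRNA-3 libraries lay above both, at 2019 to 2158 CPM. Against the scrambled siRNA all 7 markers were above 0 with siRNA-3 (median 0.85), and CYP17A1 passed. With siRNA-2 all 7 were below 0 (median -0.15) and none passed. The summed chromaffin or neural markers were 23.3 to 28.1 CPM and 13.7 to 15.8 CPM. Their part in the ribosomal values was not tested.

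The scrambled controls differed between the siRNA and shRNA systems in RPSA alone among the members. RPSA (ENSG00000168028), the small-subunit protein also known as the laminin receptor, lies on chromosome 3 from 39406689 to 39412542 on the plus strand, with 7 exons in its reference transcript and 74 annotated pseudogenes. It stood at 824, 829 and 804 CPM with the scrambled siRNA (16-1, 23-5, 30-11) and at 978, 977 and 1054 CPM with the scrambled shRNA (18-3, 19-2, 24-2), with no overlap. The log2 fold change was -0.29 (SE 0.07, adjusted p = 0.0485). The knockdown groups lay along the same line, with 851 to 952 CPM for siRNA-2, 819 to 884 CPM for siRNA-3 and 921 to 1075 CPM for the NNT shRNA. The adjusted p lay at the threshold: the log2 fold change stayed between -0.31 and -0.25 without any single library, but the call was lost without each of the 6.

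RPSA was 1 of 79 members (1.27%) beside 264 of 15201 genes (1.74%; higher 0.684%, lower 1.05%) that passed here. Members were mostly lower with the scrambled siRNA, 18 of 79 being above 0 (49.7% of all genes), with medians of -0.07 for the large and -0.09 for the small subunit and -0.002 for all genes. These medians shrank to -0.01 and -0.02 without scrambled shRNA 19-2 and to -0.02 and -0.02 without scrambled siRNA 23-5, and reached -0.12 and -0.13 without scrambled siRNA 16-1. Unadjusted p was under 0.05 for 5 members, 6.33% beside 16.8% of all genes. Libraries did not overlap for 7 members that were lower, 8.86% beside 11.7% of all genes, and for 1 that was higher (12.5% of all genes). Among members whose average log2 CPM was 3 or more, the lowest after RPSA were RPL35 (-0.20, SE 0.07, adjusted p = 0.151) and RPL34 (-0.19, SE 0.13). RPL39L was the highest of them at 0.36 (SE 0.15, adjusted p = 0.217), the member whose libraries did not overlap, followed by RPL36A (0.20, SE 0.23) and RPS29 (0.15, SE 0.18). The chromaffin or neural markers summed to 15.6 to 17.9 CPM with the scrambled siRNA and 25.1 to 28.1 CPM with the scrambled shRNA, and their part was not tested. The systems also differ in delivery, which cannot be told apart from the groups.

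**Figure D5:**
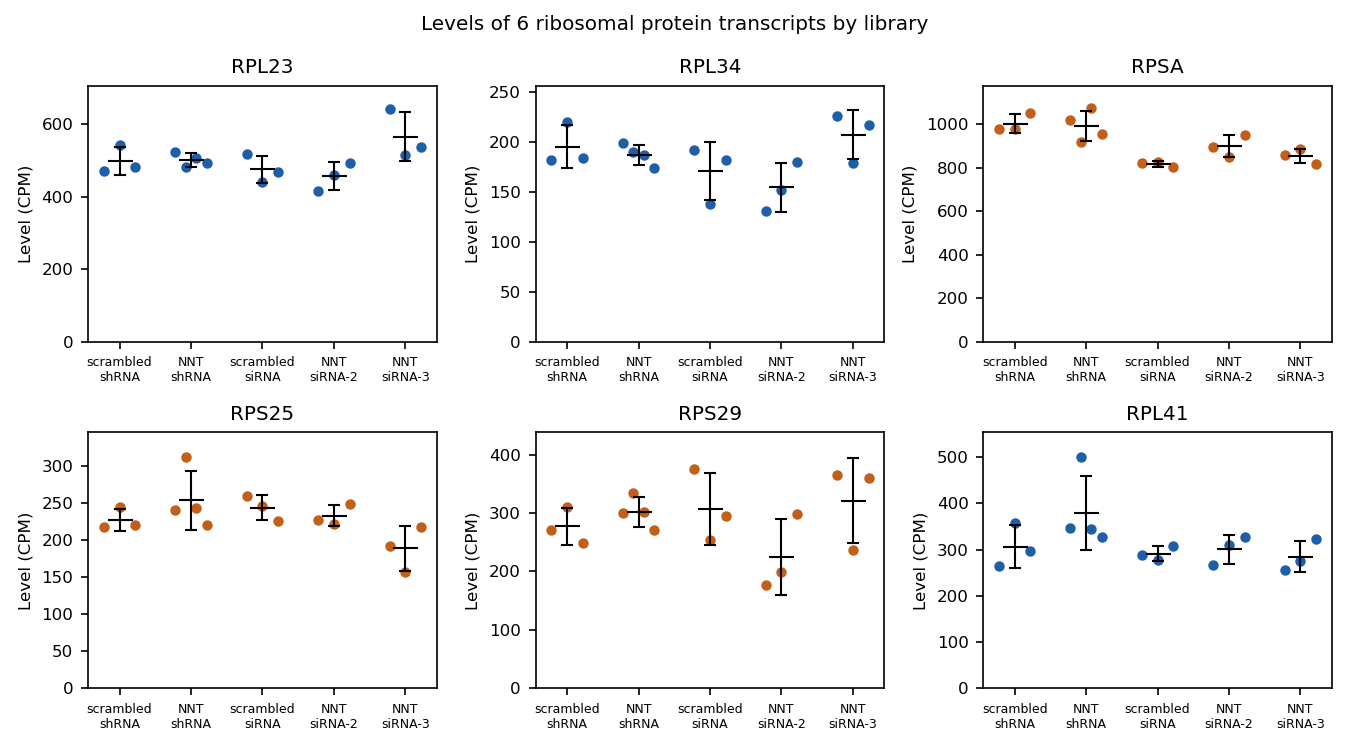
CPM of 6 members in each library (points), with the group mean (bar) and SD. RPSA is lower in all 3 siRNA groups than in the scrambled shRNA group, RPL23, RPL34 and RPS29 are lower with siRNA-2 than siRNA-3, RPS25 is lowest with siRNA-3 and RPL41 has a single high library at 500 CPM, NNT shRNA 19-2.

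Members were also grouped by role, and their calls are to be read beside the shares of all genes called: 0.0197% with the NNT shRNA, 1.97% with siRNA-2, 2.12% with siRNA-3, 14.4% between the siRNAs and 1.74% between the controls. Fits of only the groups compared called 1 of 14331 genes with siRNA-2, 56 of 14601 with siRNA-3 and 310 of 14622 between the controls. Of 21 members mutated in Diamond-Blackfan anaemia, a failure of red cell production, none passed in any comparison; their medians were 0.04 with the NNT shRNA, -0.03 with siRNA-2 and 0.12 with siRNA-3, and -0.16 between the siRNAs. The 16 members that join the small subunit early had medians of 0.04, 0.03, 0.07 and -0.10 in the same order, and the 14 that join late 0.04, -0.04, 0.06 and -0.04. RPSA in the comparison of controls was the only call in these lists. The 3 stalk genes had medians of 0.04, 0.03, 0.01 and 0.01, and the 7 paralogs with a tested value 0.05, 0.02, -0.003 and -0.002. Between the scrambled controls the medians of these 5 lists were -0.08, -0.10, -0.02, -0.04 and 0.04. Paralogs outside the naming (RPL7L1, RPL22L1, RPL26L1 and RPL36AL) gave 1 call: RPL36AL was lower with siRNA-2 than with siRNA-3 (log2 fold change -0.30, SE 0.09, adjusted p = 0.0374).

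The members were also split by the pyrimidine run at their start. With the NNT shRNA the 49 tested members that have a start with at least 5 pyrimidines had a median of 0.05, and the 14 whose listed starts all have shorter runs 0.03. With siRNA-3 they had 0.07 and 0.16, with siRNA-2 0.0003 and 0.02, and between the siRNAs -0.06 and -0.14. Translation factors with TOP starts, 24 genes outside the members, had medians of 0.03, 0.01 and 0.07 with the shRNA, siRNA-2 and siRNA-3. Of them EIF3A, the scaffold of initiation factor 3, passed with siRNA-3 (0.31, SE 0.08, adjusted p = 0.0472) and was lower with siRNA-2 than siRNA-3 (-0.25, SE 0.08, adjusted p = 0.0374), while EEF1D, an exchange factor of elongation factor 1, was higher (0.40, SE 0.12, adjusted p = 0.0347). The 11 snoRNA host genes with TOP starts had medians of -0.01, 0.17 and 0.11 in the 3 knockdown comparisons with no call. Between the siRNAs C6orf48 was 0.49 higher with siRNA-2 (SE 0.12, adjusted p = 0.0130).

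The ribosomal proteins with other symbols kept to the same range. FAU, made as a fusion with a ubiquitin-like protein, stood at 192, 199 and 224 CPM with siRNA-3 and 255, 219 and 252 CPM with the scrambled siRNA, and the log2 fold change was -0.24 (SE 0.08, adjusted p = 0.145), below 0 like RPS25. GNB2L1, a scaffold on the small subunit's head, was at 0.001, 0.07 and 0.02 with the shRNA, siRNA-2 and siRNA-3 (SE 0.09, 0.10 and 0.10). Neither gene passed in any of the 5 comparisons.

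The genes around ribosomal protein supply gave scattered calls. Of 16 dedicated chaperones and importers of ribosomal proteins, GRWD1, the chaperone of RPL3, was higher with siRNA-2 (0.40, SE 0.09, adjusted p = 0.0312) and was the 1 gene of the list that passed between the scrambled controls, lower with the siRNA (-0.41, SE 0.09, adjusted p = 0.0246). LTV1, a small-subunit assembly factor, was lower with siRNA-2 than siRNA-3 (-0.33, SE 0.10, adjusted p = 0.0358). The medians of this list were -0.01, 0.02 and 0.11 for the shRNA, siRNA-2 and siRNA-3. TSR2, the chaperone of RPS26, was at 0.30 with siRNA-2 (SE 0.12, adjusted p = 0.201).

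Of 26 genes of mTORC1 and LARP1 control, none passed with the NNT shRNA or siRNA-2, and SESN3, a brake on mTORC1, was lower with siRNA-3 (-0.90, SE 0.23, adjusted p = 0.0477). Between the siRNAs 6 of the 26 passed (14.4% of all genes did): DDIT4, SESN3 and SLC7A5 were higher with siRNA-2 and CNBP, EIF4EBP2 and TSC1 lower. DDIT4, an inhibitor of mTORC1 induced by stress, gave 1.23 (SE 0.33, adjusted p = 0.0193) and SESN3 1.49 (SE 0.23, adjusted p = 0.000625). Levels of DDIT4 were low, at 5.99, 16.3 and 7.66 CPM with siRNA-2 (11-12, 11-1, 16-1). With siRNA-3 they were 5.59, 3.18 and 3.85 CPM (11-1, 23-5, 30-11). EIF4EBP2 was higher in the scrambled siRNA than in the scrambled shRNA (0.38, SE 0.09, adjusted p = 0.0287). The medians of the list were -0.01, 0.05 and 0.09. None of 10 MYC network genes passed in any comparison, with medians of -0.10, 0.13 and 0.07.

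In the checkpoint that RPL5 and RPL11 feed, 2 of 10 genes, CDKN1A and MDM2, passed between the siRNAs, where 14.4% of all genes did. CDKN1A, the cell cycle inhibitor, stood at 188, 532 and 183 CPM with siRNA-2 (11-12, 11-1, 16-1) and 56.1 to 81.3 CPM with siRNA-3, and the log2 fold change was 2.18 (SE 0.30, adjusted p = 0.000260). Against the scrambled siRNA, CDKN1A was at 1.77 with siRNA-2 (SE 0.29, adjusted p = 0.0105), where 1.97% of all genes passed. With siRNA-3 it was at -0.41 (SE 0.29, adjusted p = 0.484). MDM2 stood at 207, 295 and 176 CPM and at 111 to 131 CPM, and the log2 fold change was 0.92 (SE 0.15, adjusted p = 0.000866), and it was lower with siRNA-3 than with its control (-0.74, SE 0.15, adjusted p = 0.0158). RPL5 and RPL11 differed by -0.14 and -0.11 (SE 0.09 each) between the siRNAs, and RPS27L, also a p53 target, by -0.03 (SE 0.07). With the NNT shRNA none of the 10 genes of this list passed, and their median was 0.05.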

How the data were processed

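Total RNA of the 16 libraries was poly(A)-selected and made into strand-marking libraries, per the labels' protocols. The deposited values are whole-number counts per gene, in 4 lane files for each library; the submitters' processing notes name STAR 2.4.2a, HTSeq 0.6.1p1, DESeq2 1.14.1 and the build hg19. How strand was set in counting, and which annotation served, is not given in the sources used here. Lanes were summed, since they differed by little more than sampling noise (chi-square per degree of freedom 1.00 to 1.04, against 8.11 to 36.7 between libraries of a group). Rows that name no gene were left out of library sizes: they held 11.3 to 16.5% (outside genes), 1.05 to 1.33% (ambiguous) and 7.47 to 8.17% (several alignments).

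All libraries entered 1 fit with a term for each group in edgeR 4.0.16 (R 4.3.3): TMM scaling, the low-count filter with a minimum count of 10, quasi-likelihood tests and Benjamini-Hochberg adjustment over 15201 genes with a threshold of 0.05 (biological coefficient of variation 0.118, 11 residual degrees of freedom). The steps were tested on simulated data. Levels per kilobase used the shortest principal GENCODE transcript (GRCh38), and starts came from RefSeq. The files use hg19, so no coordinate comes from them.

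Members and lists were chosen with earlier results of these data known. Named were members past the threshold, the 3 highest and 3 lowest of each comparison (average log2 CPM 3 or more), 14 members by role, the 3 highest per kilobase, the 3 with the largest coefficient of variation among those, and NNT; members with the lowest levels, and genes of other lists, were picked with their values in view. The shRNA codes were taken as pairing libraries, because libraries sharing a code deviated together from their groups (r of 0.141, 0.213 and 0.133 over all genes, 3 shared codes). This basis is weak: NNT shRNA 2-3 and scrambled shRNA 24-2, which share no code, gave 0.156. Other pairs without a shared code ran from -0.181 to 0.0410. Over members the shared codes gave 0.0103, 0.321 and 0.198, that pair 0.529 and the other pairs -0.532 to 0.238. The main fit had no term for the codes. Alternatives were DESeq2's size factors, library totals alone, TMM without ribosomal protein rows, no low-count filter, 5 CPM in 3 libraries, robust dispersion, lane 1 only, the title code as a block, only the groups compared, DESeq2 1.42.0 and leaving out each library. A few genes are not reported here.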

Additional observations from a re-analysis of the deposited data

Results flagged for a closer look

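Among 82 sets of 4 NNT shRNA values tested for a library far from the others, 4 stood out, as chance alone gives about 1 in 20. Library 19-2 was high for RPL36A (42.4 CPM), RPL39 (136 CPM) and RPL41 (499.6 CPM), and library 24-2 was low for RPL10A (208 CPM beside 223 to 226 CPM in the others). For RPL39 the other NNT shRNA libraries and all controls lay lower.

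The effects of siRNA-2 and siRNA-3 differed in RPL23 by -0.31 (log2, adjusted p = 0.0342) and in RPL34 by -0.42 (log2, adjusted p = 0.0356) in edgeR's direct comparison, which cancels their shared control. The siRNA-3 effect was above 0 for both genes and the siRNA-2 effect below 0 for both, and neither effect passed by itself.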

How the results depend on the processing

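The number of members that passed was small and moved with the settings. With siRNA-2 it was 1 in place of 0 with the title code as a replicate block (RPS29), when 490 of 15201 genes passed. It was 0 to 1 when single libraries were left out (RPS29 without siRNA-2 16-1). With siRNA-3 it was 1 with the block (RPL31, when 454 of 15201 genes passed) and 1 with DESeq2 (RPL15), and 0 to 1 without single libraries. Between the siRNAs it was 0 with library totals alone (2242 of 15201 genes passed), with lane 1 only (1584 of 13356) and with only the groups compared (530 of 14696). It was 4 with no low-count filter (2120 of 21444), 9 with DESeq2 and 12 with the block (2794 of 15201). Without single libraries it was 0 to 10, beside 2 in the main fit (2191 of 15201). Between the scrambled controls it was 0 with DESeq2's size factors (261 of 15201 genes passed), with no low-count filter (323 of 21444) and with lane 1 only (118 of 13356). It was 0 without each library, beside 1 in the main fit (264 of 15201). No paired analysis was possible for that comparison because the systems share no title code, and siRNA codes paired libraries in part: the correlations were 0.361 (23-5) and 0.367 (30-11) but -0.0190 (11-1) and 0.0144 (16-1). With the NNT shRNA it stayed 0 in all alternatives run. The subunit medians moved by less than the spread between libraries in all alternatives run (1 SD of a library's median was 0.09 for the large and 0.08 for the small subunit). That spread is about as large as the medians, so a median could fall near 0 and still pass. Without single libraries the large-subunit median fell from 0.108 to as low as 0.0288 with siRNA-3. Between the controls it went from -0.0711 to as near 0 as -0.0086. The sign turned for some small values when single libraries were left out. With the NNT shRNA, RPL34 ranged from -0.112 to 0.0348 (above 0 without scrambled 19-2), RPS12 from -0.0778 to 0.0270 (above 0 without NNT 24-2, and 0.00616 without scrambled 19-2) and RPS23 from -0.0870 to 0.0489 (above 0 without scrambled 19-2, and 0.0143 without NNT 19-2). With siRNA-3, RPLP0 ranged from -0.0989 to 0.000706 (above 0 without scrambled 16-1). Between the controls, RPS29 ranged from -0.0187 (without scrambled siRNA 16-1) to 0.274. The causes were not tested. Depth was low for RPL10L and RPL3L, which were not tested.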
